A study of Saccharomyces cerevisiae and Saccharomyces paradoxus with 173 samples.

Results

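The 9 genes of DNA replication licensing and origin firing were followed through the cell cycle of 10 natural budding yeast strains. They are MCM2 (YBL023C), MCM3 (YEL032W), MCM4 (YPR019W), MCM5 (YLR274W), MCM6 (YGL201C), MCM7 (YBR202W), CDC6 (YJL194W), CDC45 (YLR103C) and SLD3 (YGL113W). They were chosen by standard gene name, matched to the systematic names of the table of normalized values, and all 9 were among its 6172 genes.

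Before a cell copies its DNA, each origin of replication is licensed in G1 phase. The origin recognition complex, Cdc6 and Cdt1 load a ring of 6 related proteins, Mcm2 to Mcm7, around the DNA. In S phase the Dbf4-dependent kinase and cyclin-dependent kinase allow Sld3 and Cdc45, followed by the GINS complex, to join the ring and turn it into the active helicase. In laboratory S. cerevisiae several MCM genes and CDC6 are known to be transcribed around the end of mitosis and early G1, through early cell cycle box promoter elements, while CDC45 belongs to the genes transcribed at the G1 to S transition.

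Each strain gave 1 culture. Per the labels, cells were grown in synthetic dextrose medium, arrested in late G1 with 4 µM of the mating pheromone alpha factor for about 75 min, washed, divided over flasks, and released at 18 °C, with up to 18 samplings, the first at 0 min and the last at 345 min. Of these, 9 strains are labelled Saccharomyces cerevisiae (YPS183, YPS2055, YPS2060, YPS2066, YPS2067, YPS2073, YPS2079, YPS3060 and YPS3137) and YPS3395 is labelled S. paradoxus. YPS2060 had 15 samples, YPS2067 and YPS3137 had 16 each, and the other strains had 18. YPS2060 lacked 111, 152 and 194 min, YPS2067 lacked 87 and 111 min, and YPS3137 lacked 63 and 227 min. Means over several times use the times present, so that of 87 to 135 min in YPS2067 is the 135 min sample alone. Every sample was hybridised on 2-colour spotted oligonucleotide arrays against one reference, RNA of unsynchronised YPS183 cells grown in the rich medium YPD at 30 °C, so all strains, YPS183 included, differ from the reference in medium, temperature and synchrony. Values are log ratios, treated as log2 and likely sample over reference. A value of 0 is the reference level, and values of different genes are not levels on one scale.

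Marker genes of the arrest were compared between 0 and 48 min. The direction of the log ratios was itself taken from pheromone-induced genes being high at 0 min. These values are therefore no independent check of the arrest. The mean of 6 pheromone arrest markers ranged over the 10 strains from -0.55 to 2.25 (log2 ratio, median 0.79) at 0 min and from -0.80 to 0.06 (median -0.48) at 48 min. Of these markers 5 of 6 fell between the 2 times (limma, adjusted p under 0.05), where 126 of all 6172 genes fell. By the same rule 6 of 6 markers of MATa cells, the mating type that answers alpha factor, fell too. Of 4 MATalpha markers only MF(ALPHA)1 was measured, with values from -0.31 to 0.58 at 0 min. RNA was pooled over a culture, so fewer cells in a phase and less RNA per cell cannot be told apart.

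Some libraries stood apart. The labels give array prints of 2005 or 2006 for 40 samples: 17 of YPS2073, 9 each of YPS3060 and YPS3137, and 5 of YPS183. In YPS3060 and YPS3137 these are exactly every second sampling: 0, 48, 87, 135, 176, 218, 251, 284 and 325 min. These times are set A in the text, and the times in between are set B, for which both strains had 2007 prints alone. In YPS3137 and YPS3060 the set A samples stood apart from their set B neighbours in CDC45, and in YPS3137 in MCM4 too, as described below. Some of the results over strains are therefore also given without YPS2073, YPS3060 and YPS3137, a choice made after seeing the data. YPS183 stays in, although MCM2 was below 0 in all 5 of its samples with older prints.

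The first question was which of the 9 genes changed as cells left the arrest. Between 0 and 24 min MCM3, MCM5, MCM6 and CDC6 rose, 4 of 9 genes, where 2.45% of all 6172 genes rose by the same rule (limma, Benjamini-Hochberg adjusted p under 0.05 over all genes, strain as a block, 1 difference per strain). None of the 9 fell. The median difference of the 9 was 0.30 on the log2 scale, and that of all genes was -0.02.

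MCM6, a subunit of the ring, had log2 ratios at 0 min from -0.98 through a median of -0.38 to -0.11. At 24 min they ran from -0.57 through 0.30 to 0.79. The groups overlapped: YPS2067, YPS2073 and YPS183 at 24 min lay below the highest 0 min value, that of YPS3395. Every strain was higher at 24 min than at 0 min. The difference was 0.59 ± 0.10 (moderated SE over 10 strains, limma adjusted p = 0.0091), smallest in YPS2073 at 0.21 and largest in YPS2066 at 1.34. Here and below, the SE of a fitted difference is that of limma, with each gene's variance drawn toward that of all genes. The 24 min sample of YPS2066 rests on 1 array in 1 dye; without that strain the difference was 0.51 and passed (limma adjusted p = 0.011).

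MCM5, another ring subunit, ran from -0.13 through 0.04 to 0.13 at 0 min and from 0.05 through 0.33 to 0.52 at 24 min. It rose by 0.30 ± 0.05 (SE, limma adjusted p = 0.0091) in 10 of 10 strains, with the narrowest spread of the 9 genes, from 0.17 in YPS183 to 0.42 in YPS3137. In S. paradoxus YPS3395 it was lowest at both times, at -0.13 and then 0.05.

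MCM3 ran from -0.22 through 0.10 to 0.46 at 0 min and from 0.11 through 0.57 to 0.68 at 24 min. YPS2067 went the other way, from 0.46 to 0.11, and YPS183 hardly moved, from 0.30 to 0.27. The rise was 0.39 ± 0.10 (SE, limma adjusted p = 0.044, higher in 8 of 10 strains).

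CDC6, which encodes the protein that brings the ring to the origin, ran from -0.44 through -0.13 to 0.19 at 0 min and from -0.05 through 0.28 to 0.64 at 24 min. It rose by 0.41 ± 0.10 (SE, limma adjusted p = 0.048, higher in 9 of 10 strains). The exception was YPS2060, which went from 0.09 to -0.05.

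CDC45, which encodes the helicase cofactor that joins at firing, had a difference between those of MCM6 and CDC6, with more spread between strains, and missed the threshold. Its values ran from -0.63 through -0.13 to 0.10 at 0 min and from -0.15 through 0.38 to 0.68 at 24 min, a difference of 0.52 ± 0.14 (SE, limma adjusted p = 0.053, higher in 8 of 10 strains). YPS2073 and YPS3395 were lower at 24 min, and YPS183 stayed at -0.07. It was 1.26 in YPS3060, whose 0 min and 24 min samples differ in print year, and 0.46 (limma adjusted p = 0.098) over the 7 strains left without YPS2073, YPS3060 and YPS3137. It passed with quantile normalization (adjusted p = 0.039), with median scaling (0.039), and without YPS183, YPS2073 or YPS3395 (down to 0.019), and did not pass when any 1 of the other 7 strains was left out (up to 0.12).

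The other 4 genes did not pass. MCM2 differed by 0.26 ± 0.10 (SE, limma adjusted p = 0.14), MCM4 by 0.08 ± 0.14 and MCM7 by 0.02 ± 0.08. SLD3, whose protein recruits Cdc45, differed by -0.30 ± 0.28 (SE, limma adjusted p = 0.60), and its whole negative mean came from YPS183, at -3.23, since the other 9 strains lay between -0.23 and 0.21.

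MCM5 and MCM6 passed with any 1 strain left out. MCM3 passed only with YPS183, YPS2067 or YPS2073 left out (adjusted p up to 0.10), and CDC6 only with YPS2060 or YPS2073 left out (also up to 0.10). Without YPS2073, YPS3060 and YPS3137 the count was 2 of 9, MCM5 and MCM6, and with only 2007 prints in both dyes (6 strains) it was 1 of 9, MCM6. The 0 min samples belong to set A and the 24 min samples to set B, and the comparison within set A gave no call: between 0 and 48 min 0 of 9 genes passed in limma, against 3.82% of all genes, and 2 had an unadjusted p under 0.05. These were MCM6, at 0.32 ± 0.11 (SE, adjusted p = 0.13, higher in 9 of 10 strains), and CDC45, at 0.35 ± 0.16 (SE, adjusted p = 0.26, higher in 8 of 10 strains). Here and below, counts at an unadjusted p have no share of all genes beside them, so they show nothing particular to the 9. Without YPS3137, CDC45 differed by 0.48 between 0 and 48 min and passed (limma adjusted p = 0.046).

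**Figure D1:**
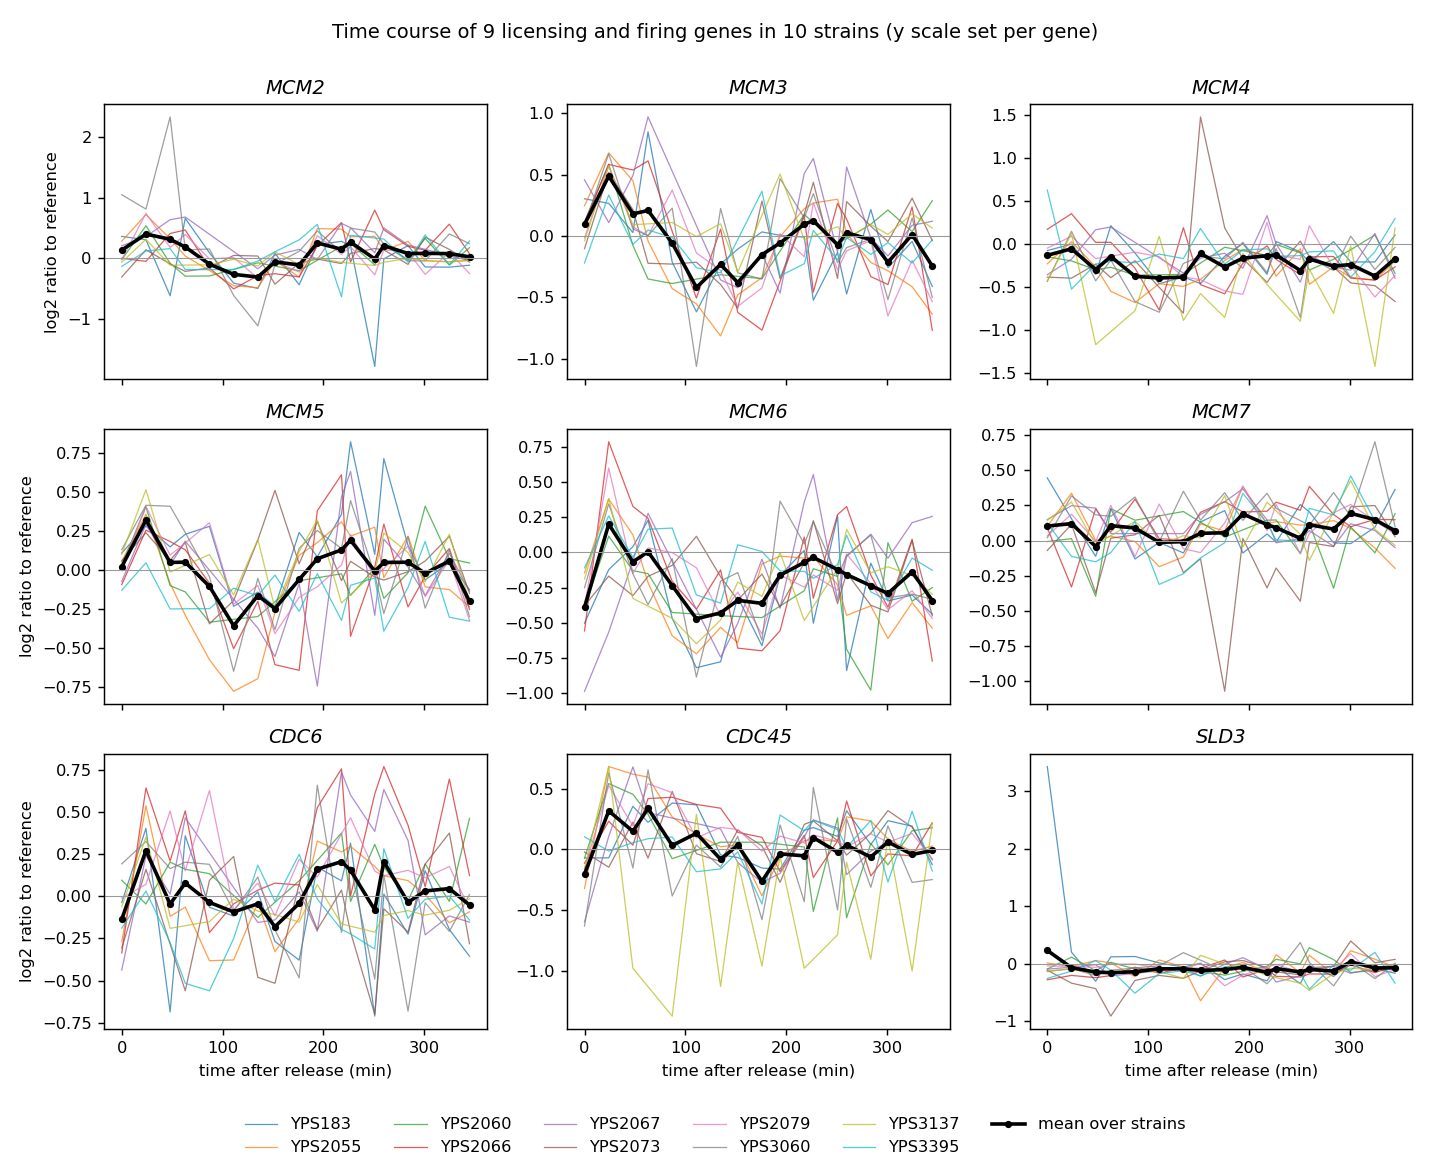
Log2 ratio to the reference (vertical axis, scaled separately for each gene) against time after release in minutes, for the 9 genes; thin lines are the 10 strains and the black line with points is their mean. The means of MCM3, MCM5 and MCM6 are highest at 24 min and lowest at 111 min, and the single SLD3 value of 3.43 is YPS183 at 0 min.

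The next question was what followed. Over strains, the means of MCM2 to MCM6 were highest at 24 min and lowest at 111 or 135 min. MCM3 went from a mean of 0.49 at 24 min to -0.42 at 111 min, MCM6 from 0.20 to -0.47 and MCM5 from 0.32 to -0.36. MCM7 followed no such course, with means between -0.04 and 0.19 at all times.

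Between the mean of 24 to 63 min and the mean of 87 to 135 min MCM2, MCM3, MCM5 and MCM6 fell, 4 of 9 genes, where 2.32% of all genes fell by the same rule. None rose. The median difference of the 9 genes was -0.22 and that of all genes 0.00.

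MCM3 ran over strains from 0.05 through a median of 0.29 to 0.58 in the early window and from -0.60 through -0.24 to 0.07 in the later one. The windows overlapped only just, because YPS3137 in the later window, at 0.07, exceeded YPS2060 in the early one. MCM3 fell by 0.54 ± 0.08 (moderated SE over 10 strains, limma adjusted p = 0.0069). It was lower in 10 of 10 strains, most in YPS2055 (-0.96) and least in YPS2079 (-0.23).

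MCM5 ran from -0.15 through 0.18 to 0.36 early and from -0.68 through -0.21 to 0.05 later. It fell by 0.36 ± 0.06 (SE, limma adjusted p = 0.014, 10 of 10 strains). The fall was smallest in S. paradoxus YPS3395, at -0.03.

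MCM6 ran from -0.21 through 0.04 to 0.45 early and from -0.74 (YPS2067, at 135 min alone) through -0.41 to -0.05 later. It fell by 0.45 ± 0.08 (SE, limma adjusted p = 0.014, lower in 9 of 10 strains). YPS2073 alone moved up, by 0.16.

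MCM2 ran from -0.05 through 0.20 to 1.09 early and from -0.52 through -0.17 to -0.02 later. It fell by 0.51 ± 0.13 (SE, limma adjusted p = 0.042, lower in 9 of 10 strains), and YPS3060 stood apart at -1.61. Without YPS3060 the fall was 0.39 and passed (adjusted p = 0.025). MCM2 also passed without YPS2073 or without YPS3395, and did not when any of the other 7 strains was left out (adjusted p up to 0.097).

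MCM4 differed by -0.20 ± 0.06 (SE, limma adjusted p = 0.072, lower in 9 of 10 strains) and passed without YPS3395, where it moved up by 0.15. CDC45 differed by -0.22 ± 0.08 (SE, adjusted p = 0.13), CDC6 by -0.16 ± 0.07 (SE, adjusted p = 0.18), MCM7 by -0.03 ± 0.05 and SLD3 by 0.02 ± 0.05. With only 2007 prints in both dyes 6 of 9 genes fell over 9 strains, MCM4 (-0.28) and CDC6 (-0.27) being the added ones. Within set A alone 0 of 9 passed, but there no gene of the whole table did, and 3 of the 9 had an unadjusted p under 0.05. The same 4 MCM genes had differences of -0.52, -0.34, -0.20 and -0.29 there, in the order MCM2, MCM3, MCM5 and MCM6. Within set B 4 of 9 passed over 8 strains. No share of all genes is given for set B or for the 2007 prints.

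**Figure D2:**
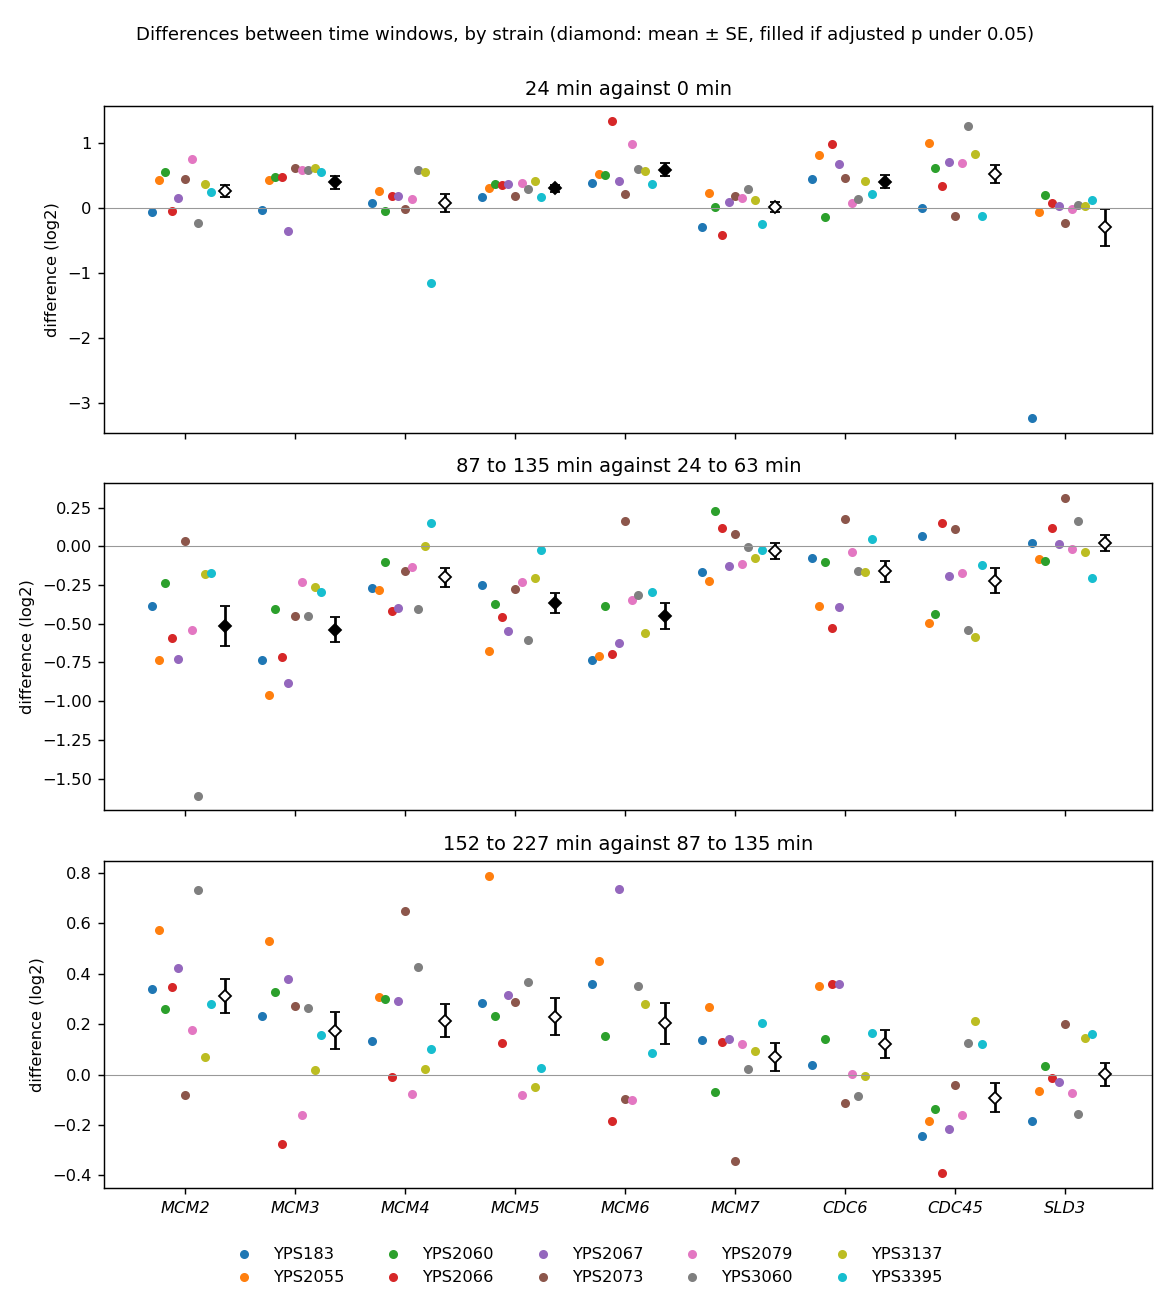
Differences on the log2 scale (vertical axis) for the 9 genes between 3 pairs of time windows. Each coloured point is 1 strain, and the diamond is the mean with its moderated SE from limma, filled where the adjusted p is under 0.05. The 4 filled diamonds of the top panel lie between 0.30 and 0.59 and those of the middle panel between -0.54 and -0.36, and no diamond is filled in the bottom panel.

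From 87 to 135 min to 152 to 227 min 0 of 9 genes passed in limma, against 0.94% of all genes. At an unadjusted p under 0.05 there were 5 of 9, all MCM genes with positive differences, with no share of all genes to set beside them. MCM2 differed by 0.31 ± 0.07 (SE, limma adjusted p = 0.055, higher in 9 of 10 strains), ranging from -0.08 in YPS2073 to 0.73 in YPS3060. It passed without YPS2073 and without YPS3137 (adjusted p = 0.030 and 0.044). MCM5 differed by 0.23 ± 0.07, MCM4 by 0.21 ± 0.07, MCM6 by 0.20 ± 0.08 and MCM3 by 0.18 ± 0.07 (all SE, limma adjusted p from 0.15 to 0.28). With only 2007 prints in both dyes MCM2 (0.39) and CDC6 (0.23) passed, with no share of all genes given.

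From 152 to 227 min to 251 to 345 min 0 of 9 genes passed, against 0.0648% of all genes, and 0 of 9 had an unadjusted p under 0.05. The differences ran from -0.09 for MCM4 to 0.06 for CDC45, and the SEs from 0.03 to 0.06.

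Within single strains, a smooth curve of time was fitted to each gene and tested against a flat line (limma, spline with 7 degrees of freedom, adjusted over all genes of a strain). Over the 90 pairs of a gene and a strain, 9 passed, where 4.61% of all gene-strain pairs did. One of the 9, SLD3 in YPS183, was chosen for its 0 min value, and of the other 89 pairs 8 passed. Since each strain is 1 culture, these p-values measure scatter around the curves, not the spread between cultures. For each gene this scatter was pooled over all 10 strains, so noise in 1 strain enters the p-values of the others. Of all genes 3.9% varied in YPS183, 3.97% in YPS2055, 0.194% in YPS2060, 9.22% in YPS2066, 10.3% in YPS2067, 8.07% in YPS2073, 0.583% in YPS2079, 1.8% in YPS3060, 1.78% in YPS3137 and 6.29% in YPS3395. None of the 9 genes varied in YPS2060, YPS2079, YPS3137 or YPS3395.

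In YPS2055 MCM3 and MCM5 varied. MCM3 went from 0.25 at 0 min to 0.68 at 24 min, down to -0.81 at 135 min, up to 0.30 at 251 min and down again to -0.64 at 345 min, so that it was high at 2 separate times. Its fitted curve spanned 1.20 (limma adjusted p = 0.011). MCM5 went from 0.36 at 24 min to -0.78 at 111 min and back to 0.31 at 218 min, with a fitted span of 1.12 (adjusted p = 0.0060).

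In YPS2066 MCM3 and MCM6 varied, with fitted spans of 1.12 and 1.01 (limma adjusted p = 0.024 and 0.013). MCM6 stood at -0.56 at 0 min, 0.79 at 24 min, -0.70 at 176 min and 0.33 at 260 min. MCM3 stood at 0.61 at 63 min, -0.77 at 176 min and 0.26 at 251 min, so both genes were low at 176 min and positive again by 251 min. In this strain the samples at 24, 63, 135 and 251 min each rest on 1 array in 1 dye, among them the high values of MCM6 at 24 min and of MCM3 at 63 and 251 min.

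In YPS2067 MCM6 varied with a fitted span of 1.36 (limma adjusted p = 0.0066). It was lowest at 0 min, at -0.98, still at -0.57 at 24 min, and reached 0.28 at 63 min. It then stood at -0.74 at 135 min and 0.55 at 227 min. MCM3 in this strain stood at 0.46 at 0 min, 0.11 at 24 min and 0.97, its highest value of all samples, at 63 min. Its own curve did not pass (span 1.25, adjusted p = 0.062).

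The passing pairs of the other strains were less like these. MCM2 in YPS3060 spanned 2.16 (limma adjusted p = 0.00035), from 2.32 at 48 min to -1.11 at 135 min. The 48 min value was the highest of MCM2 in any sample, with 1.05 in the same strain at 0 min next. Without that sample the span was 1.61 and still passed (adjusted p = 0.014). MCM7 in YPS2073 spanned 0.71 (adjusted p = 0.015), with 1 low value of -1.08 at 176 min, and SLD3 in YPS2073 spanned 0.82 (adjusted p = 0.019), from -0.91 at 63 min to 0.39 at 301 min. These last 2 did not pass under a spline with 5 degrees of freedom or quantile normalization, and 17 of 18 samples of YPS2073 are from older prints. The ninth pair was SLD3 in YPS183.

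Adding a term for the sampling set raised the count from 9 to 14 of 90 pairs. The added pairs were CDC45 in YPS2055, YPS2067 and YPS3137, CDC6 in YPS2067 and MCM4 in YPS2073. On 2007 prints alone 11 pairs passed over 6 strains, against 5 for the same strains with all samples of all strains in the fit. All 11 were in YPS2055, YPS2066 and YPS2067. They included CDC45 in YPS2055 and YPS2067, with fitted spans of 0.85 and 1.13 and the high points at 48 and 63 min. No share of all gene-strain pairs is given for these fits, so the higher counts show no gain particular to the 9 genes.

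SLD3 at 0 min in YPS183 was singled out for its value, so it is given as a description, and the calls that rest on it (its time course and its level in YPS183) support nothing. Its log2 ratio there was 3.43. The other 172 values of SLD3 ran from -0.91 through a median of -0.09 to 0.39, the other 17 of YPS183 from -0.35 to 0.20, and the 0 min values of the other 9 strains from -0.28 to 0.01. At 24 min YPS183 was already at 0.20. The sample rests on 2 arrays of 2007 prints with both dyes.

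Among the 6172 genes of this sample SLD3 ranked 10 from the top, and 14 genes were above 3. The sample as a whole was high in many genes: for 106 genes it held their highest value of all samples, and 101 genes exceeded their mean in the other 0 min samples by more than 2. By that excess SLD3, at 3.55, ranked 40. Its value exceeded its own highest value elsewhere by 3.03, and no other gene's did so by more than 2 in this sample. Over the whole table its gap between the highest and the next value ranked 13 of 6172. The next widest gaps in this sample were those of BUB1, a spindle checkpoint kinase (2.52 here and at most 1.02 elsewhere), PMU1 (1.97 and 0.49) and KAR4, a regulator of the pheromone response (2.62 and 1.18). The neighbouring genes on the chromosome were not raised alike: YGL114W was at 0.44 and TAF6 at -0.14. The pheromone arrest markers had their highest mean, 2.25, and the MATa markers theirs, 1.45, in this same sample, and the part of that in the SLD3 value was not tested.

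Without this sample the SLD3 curve in YPS183 spanned 0.34 and did not pass (limma adjusted p = 0.82). From 24 min on the mean of SLD3 over strains stayed between -0.16 and 0.03.

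**Figure D3:**
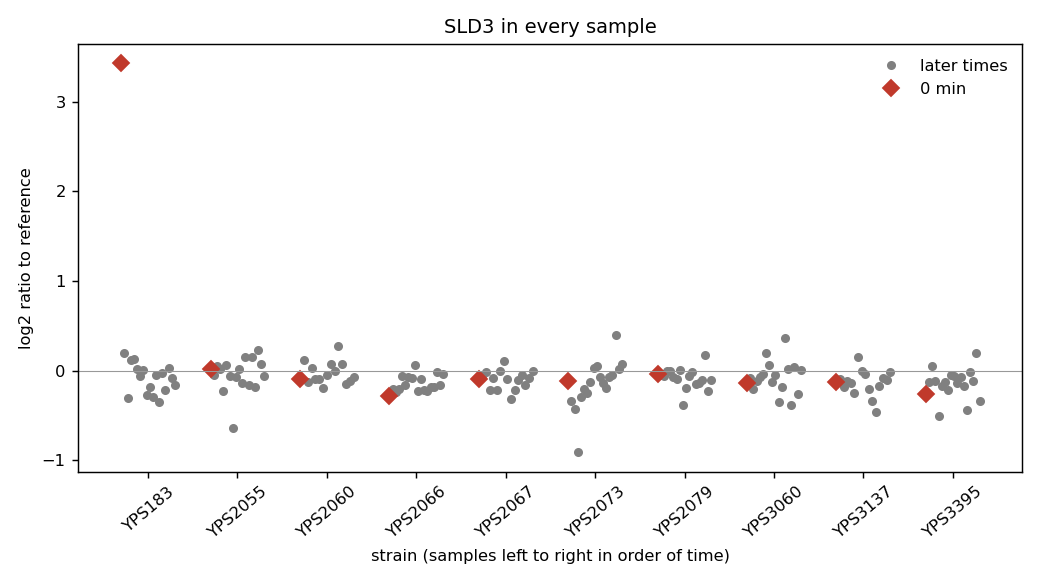
Log2 ratio of SLD3 to the reference (vertical axis) in all samples of the 10 strains (horizontal axis, samples of a strain from left to right in order of time); diamonds are the 0 min samples and circles the later ones. One diamond, YPS183 at 3.43, lies above all others, and the remaining 172 values lie between -0.91 and 0.39.

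The CDC45 and MCM4 values of YPS3137 changed from one sampling time to the next. The 9 set A samples of CDC45 lay between -1.37 and -0.16 (mean -0.91 ± 0.33 SD) and the 7 set B samples between -0.11 and 0.68 (mean 0.14 ± 0.28 SD), with no overlap. In YPS3060 they lay between -0.63 and -0.15 (mean -0.38 ± 0.17 SD, 9 samples) and between -0.25 and 0.65 (mean 0.26 ± 0.29 SD, 9 samples). In the other 8 strains the mean of set A differed from that of set B by -0.14 to 0.13.

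MCM4 in YPS3137 lay between -1.42 and -0.43 in set A (mean -0.86 ± 0.31 SD) and between -0.58 and 0.18 in set B (mean -0.09 ± 0.27 SD). In YPS3060 the means were -0.41 and -0.13. In both strains every set A sample holds an older print and every set B sample only 2007 prints, so sampling set and print cannot be told apart there, and no test was made between the sets.

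**Figure D4:**
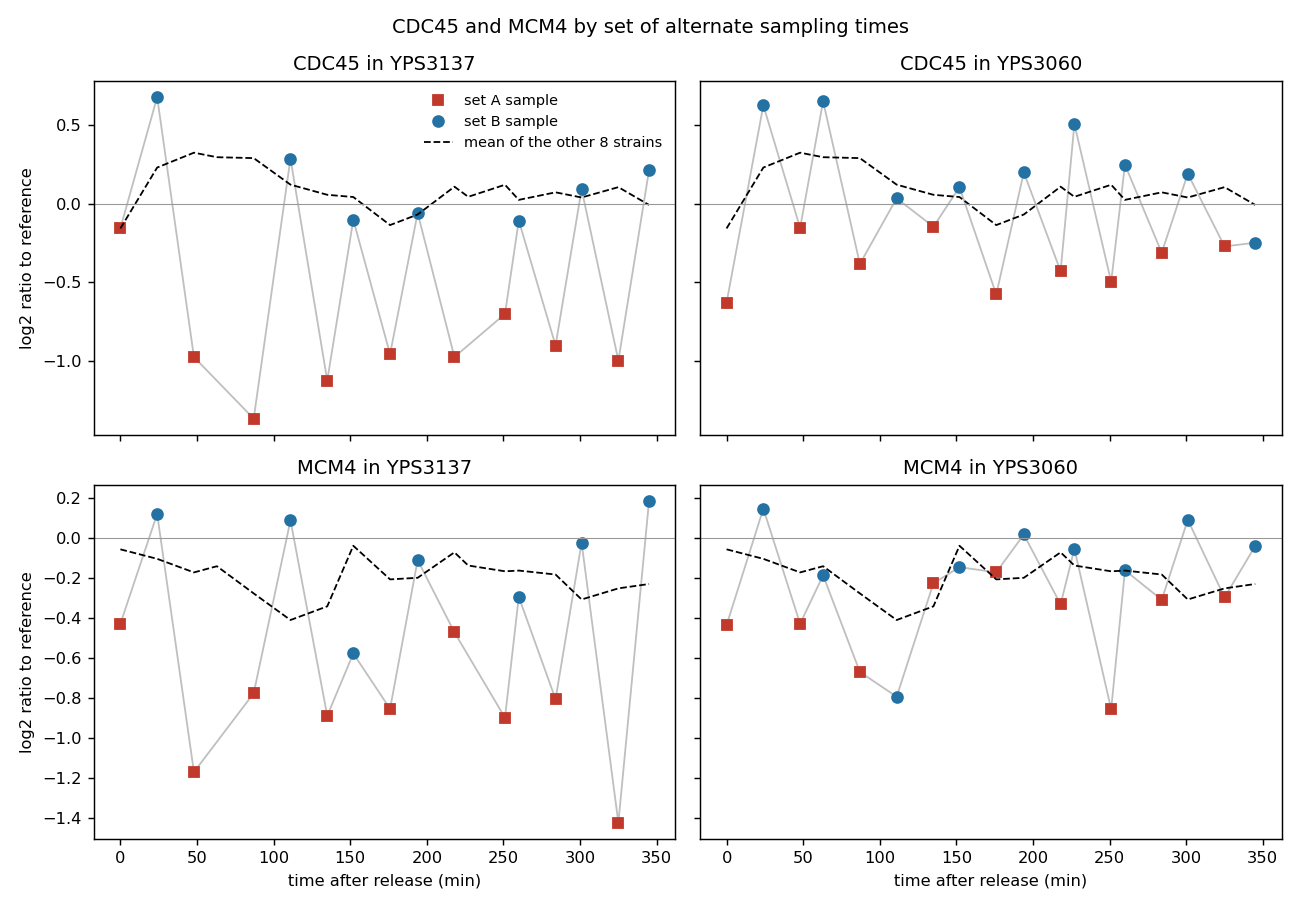
Log2 ratio to the reference (vertical axis) against time after release in minutes for CDC45 (top) and MCM4 (bottom) in YPS3137 and YPS3060; squares are set A samples, circles set B samples, and the dashed line is the mean of the other 8 strains. In YPS3137 every CDC45 square after 0 min lies at -0.70 or lower while the circles lie at -0.11 or higher.

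The strains were then compared in level, as the mean of the fitted curve over the 12 times all strains share, each S. cerevisiae strain against the mean of the other 8. Of 81 gene-strain pairs 9 passed, where 17.7% of all pairs did. Of the 80 pairs other than SLD3 in YPS183, chosen for its 0 min value, 8 passed. Each strain is 1 culture, so here too the SEs and p-values come from time samples of the same cultures. They rest on the same scatter pooled over strains and do not measure how far 2 cultures of 1 strain would differ.

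In YPS3137 CDC45 was lower by 0.44 ± 0.09 and MCM4 by 0.33 ± 0.09 on the log2 scale (32.7% of all genes passed in this strain). Within set B they were higher by 0.10 and 0.19 and did not pass (limma adjusted p = 0.67 and 0.59). In YPS183 MCM2 was lower by 0.24 ± 0.09 and SLD3 higher by 0.31 ± 0.05, beside 31.6% of all genes. The SLD3 difference was -0.01 without the 0 min sample. The 5 samples of YPS183 that hold an older print, all in set A, had MCM2 values from -1.77 to -0.14. The lowest, at 251 min, was the lowest MCM2 value of all samples. Its set A samples on 2007 prints alone lay between 0.09 and 0.36, and its set B samples between -0.405 and 0.66. The part of the print in this level difference was not tested.

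CDC6 was higher in YPS2066 by 0.32 ± 0.07 (SE, limma adjusted p = 0.00083), beside 15.3% of all genes, and was also higher there on 2007 prints alone, by 0.21 (adjusted p = 0.020). Its values in YPS2066 ran from -0.34 at 0 min to 0.77 at 260 min. The samples of this strain at 24, 63, 135 and 251 min, all on 2007 prints, each rest on 1 array in 1 dye. CDC6 stood at 0.64, 0.51, 0.04 and 0.61 in them. In YPS2073 CDC6 and MCM7 were each lower by 0.21 (32.9% of all genes passed). In YPS3060 MCM2 was higher by 0.31 ± 0.09 and MCM7 by 0.16 ± 0.05, beside 13.2% of all genes. Without its 48 min sample MCM2 differed by 0.21 and did not pass (adjusted p = 0.097). Within set B only 1 of 81 pairs passed, MCM4 in YPS2073, which was not among the 9.

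Between species 0 of 9 genes differed in level in limma, where 2.43% of all genes did, with 1 of 9 at an unadjusted p under 0.05. This was MCM5, at -0.17 in YPS3395 and 0.04 as the mean of the 9 S. cerevisiae strains, which ran from -0.00 to 0.15. The difference was -0.21 ± 0.07 (SE, adjusted p = 0.19). YPS3395 lay outside the range of the S. cerevisiae strains in MCM5 and, only just, in MCM4, at -0.09 against -0.58 to -0.13. This MCM4 mean includes 1 high value, 0.62 at 0 min, while its other shared times ran from -0.53 to 0.29. The MCM4 difference was not tested without that sample. The design has 1 S. paradoxus strain, which is assumed to vary like the others, and probe match to its sequence was not analysed here.

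The 9 genes did not move as one. Over all samples of the series, with each strain's mean removed, the 6 pairs of MCM2, MCM3, MCM5 and MCM6 had Pearson correlations of 0.33 to 0.67. CDC6 correlated with these 4 genes at 0.37 to 0.47. MCM7 correlated with the other MCM genes at only -0.06 to 0.16, CDC45 with the MCM genes at -0.08 to 0.36 and SLD3 with the other members at -0.11 to 0.13. The samples share cultures and a reference, so these values describe the samples and carry no test. These values moved with the samples used. The 4 MCM genes correlated at 0.55 to 0.73 over the 133 samples on 2007 prints alone, at 0.13 to 0.58 within set A and at 0.51 to 0.80 within set B. CDC6 correlated with them at 0.31 to 0.41 within set A and at 0.50 to 0.66 within set B. MCM7 reached 0.34 with another MCM gene on 2007 prints and 0.40 within set B. MCM4 correlated with the other MCM genes at -0.06 to 0.32 over all samples and at 0.05 to 0.46 on 2007 prints. The 0.36 of CDC45 was its correlation with MCM4, which was 0.12 on 2007 prints. There CDC45 correlated with the MCM genes at -0.01 to 0.29.

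**Figure D5:**
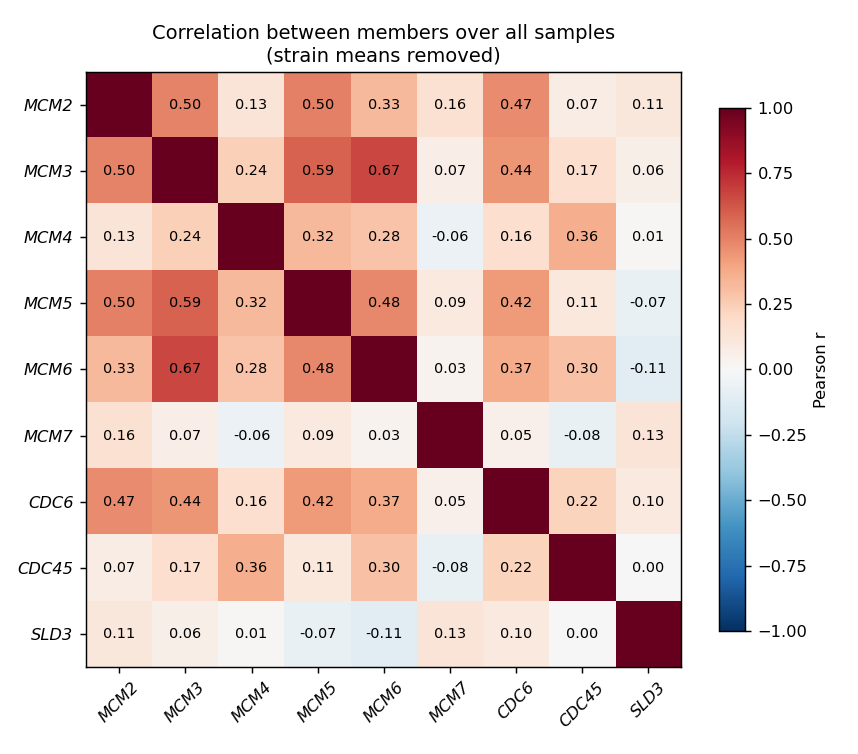
Pearson correlation between the log2 ratios of each pair of the 9 genes over all samples after each strain's mean was subtracted, in colour from -1 to 1 and as numbers. MCM2, MCM3, MCM5, MCM6 and CDC6 form a block with values from 0.33 to 0.67, and the rows of MCM7 and SLD3 lie near 0.

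Outside the 9, the genes most like the mean of MCM2 to MCM7 were HST4 (r = 0.55), MSA1 (0.54), YBR071W (0.54), HSP150 (0.53) and RGA1 (0.51). MSA1 encodes an activator of G1-specific transcription. Most like CDC6 were CYK3 (0.52), MSA2 (0.50), PRR1 (0.50), YBR071W (0.48) and UTR2 (0.45). Most like CDC45 were SMC3, a cohesin subunit (0.71), DUN1, a checkpoint kinase (0.67), MOT1 (0.65), YNL165W (0.65) and RNH202 (0.63). On 2007 prints the first for CDC45 were PRI2, a primase subunit (0.78), MSH6, a mismatch repair protein (0.78), and RAD27, the flap endonuclease (0.77). For SLD3 they were KAR4 (0.58), BUB1 (0.52), UBP16 (0.51), PMU1 (0.44) and YKL053W (0.44), but without YPS183 at 0 min the highest correlation of any gene was 0.32, with STB2.

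Other genes of the pathway were counted between 0 and 24 min, where 2.45% of all genes rose (limma, adjusted p under 0.05). TAH11, which encodes the loading factor Cdt1, rose by 0.37 ± 0.07 (SE, limma adjusted p = 0.013, higher in 10 of 10 strains). Of the origin recognition complex 0 of 6 subunits passed, ORC5 coming nearest at 0.29 ± 0.09 (adjusted p = 0.083). Neither subunit of the Dbf4-dependent kinase passed (0 of 2, DBF4 at 0.19) and 0 of 4 GINS genes did (PSF2 at 0.21).

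Of 5 other firing factors CTF4, which ties the helicase to polymerase alpha, rose by 0.32 ± 0.07 (SE, limma adjusted p = 0.025). Of the S phase cyclins, their kinase and its inhibitor, CLB6 rose by 0.52 ± 0.13 (adjusted p = 0.045) and CLB5, SIC1 and CDC28 did not pass, 1 of 4 in all. CLB5 rose by 0.26 ± 0.05 (adjusted p = 0.018) between 24 to 63 min and 87 to 135 min, where the 4 MCM genes fell. Of all 6172 genes 139 rose between these windows. Of 5 other early cell cycle box genes and their regulators, SWI4 rose by 0.38 ± 0.08 and YOX1, a repressor of early cell cycle box genes, by 0.48 ± 0.12, and CLN3 (-0.34 ± 0.11, adjusted p = 0.10), MCM1 and YHP1 did not pass.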

How the data were processed

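The members, the pathway lists and the tests were chosen with earlier results of these data known. RNA of each strain and time was measured on 2-colour arrays. The deposited values are log ratios, treated here as log2, 1 column per sample. Per the labels, the authors used 1 to 5 arrays per sample (377 in all), with dye swaps. The sources used here give neither the combining, normalization and centring of the arrays nor the base of the logarithm, so sizes hold only if the base is 2. The direction was taken as sample over reference because pheromone-induced genes were high at 0 min. Sample medians ran from -0.066 to 0.039. The table has 7 more columns with no matching sample, which were left out. Precision is limited by the number of arrays, which was 1 in 8 samples, 2 in 132 and higher in 33. Background signal was not used here.

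The strain was the group and time a number. Window comparisons used 1 mean per strain and window, with strain as a block. Curves used strain-specific natural splines with 7 degrees of freedom over all samples, and the species comparison 1 mean per strain. All were fitted over 6172 genes with limma 3.58.1 in R 4.3.3 (lmFit and eBayes), with Benjamini-Hochberg adjustment over all genes and a threshold of 0.05. The steps were tested on simulated data. Named are all 9 genes, up to 4 list genes with the lowest p at 24 min and up to 2 in another comparison, and the 5 genes most alike by Pearson correlation; STB2, PRI2, MSH6 and RAD27 were named from alternative sample sets, and BUB1, PMU1 and KAR4 for their gaps, after their values were seen. Alternatives were other scalings, print years, sampling sets, splines and left-out strains; leaving out YPS2073, YPS3060 and YPS3137 together, YPS183 at 0 min or YPS3060 at 48 min was chosen after seeing the data. Names come from the RefSeq table of assembly R64. No sequences are given. Python 3.11.15, numpy 2.4.6, pandas 2.3.3 and matplotlib 3.10.9 were used for the rest.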

Additional observations from a re-analysis of the deposited data

Results flagged for a closer look

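Over 45 sets of 10 strain differences (9 genes, 5 pairs of windows), 7 had 1 strain set off from the rest by a wide gap. Chance gives about 1 in 20 for independent, normally spread sets, but these sets share strains and windows. No share of all genes is given for this rule, so the count shows no excess particular to the 9 genes. Of the 7, 2 rest on the SLD3 value that was chosen for its size, and of the other 43 sets 5 were set off. SLD3 in YPS183 differed by -3.23 between 0 and 24 min and by -3.73 between 0 and 48 min, both through its value of 3.43 at 0 min. MCM4 in S. paradoxus YPS3395 differed by -1.15 between 0 and 24 min, while the other 9 strains lay between -0.05 and 0.58. MCM2 in YPS3060 differed by -1.61 between 24 to 63 min and 87 to 135 min. It stood at 2.32 at 48 min, in a sample with an array of a 2006 print, and at -1.11 at 135 min, on prints of 2005 and 2006. MCM6 in YPS2073 rose by 0.16 between the same windows, against falls in all other strains. MCM5 in YPS2055 differed by 0.79 between 87 to 135 min and 152 to 227 min. MCM4 in YPS2073 differed by -0.48 between 152 to 227 min and 251 to 345 min, with 1.47 at 152 min, the highest MCM4 value of all samples.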

How the results depend on the processing

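The 4 rises between 0 and 24 min became 1 with only 2007 prints in both dyes, 2 without YPS2073, YPS3060 and YPS3137, and 2 to 5 with 1 strain left out (2 without YPS2055, YPS2066, YPS2079, YPS3060 or YPS3137). The 0 calls between 0 and 48 min became 1 without YPS3137 (range 0 to 1). The 4 falls between 24 to 63 min and 87 to 135 min became 0 within set A, where 0 of all genes passed, and ranged from 3 to 5 with 1 strain left out. The 0 calls from there to 152 to 227 min became 2 on 2007 prints in both dyes, 1 without YPS2073, YPS3060 and YPS3137, and 0 to 1 with 1 strain left out. The 9 time courses became 14 with a term for the sampling set and 11 on 2007 prints. The 9 level differences became 2 on 2007 prints (5 strains) and 1 within set B. Apart from the falls within set A, no share of all genes is given for these alternatives. Whether the changes are particular to the 9 genes was not tested. The other alternatives of these counts stayed within 1.5 times, and the counts of 0 for the latest windows and between species stayed 0 under every alternative run. The level differences that changed sign were SLD3 in YPS183 (-0.012 without the 0 min samples and -0.010 without YPS183 at 0 min), CDC45 in YPS3137 (0.10 within set B) and MCM4 in YPS3137 (0.19 within set B). The causes were not tested. Fewer samples enter the fits with samples or strains left out, while the fit with a term for the sampling set uses all samples.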
